A study of Mus musculus with 4 samples.

Results

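Heme synthesis and iron handling were followed through 9 genes in 32Dclone3 cells, a mouse myeloid line that grows in interleukin-3. The genes were taken by name: 7 enzymes of heme synthesis (Alas1, Alad, Uros, Urod, Cpox, Ppox and Fech), the transferrin receptor gene Tfrc and the heme oxygenase gene Hmox1, out of 21506 genes in the tables. RNA sequencing of poly(A)-enriched RNA compared 2 control libraries, from cells stably infected with the XZ control virus, with 2 miR-125b libraries, from cells stably infected with XZ-miR-125b. Each condition was infected on 2 occasions with separate virus supernatants, so that all 4 cultures carry a viral vector, and the parent line is a clone. No untreated cells were part of the comparison, which asked how expression differs when miR-125b is overexpressed.

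Heme is built in 8 enzymatic steps that begin and end in mitochondria and pass through the cytosol in between. The first enzyme, 5-aminolevulinate synthase, is the usual point of control and is encoded by Alas1 in most cells and by Alas2 in erythroid cells, while ferrochelatase (Fech) inserts the iron at the end. Iron enters cells on transferrin through the transferrin receptor, is stored in ferritin, and is set free again when heme oxygenase opens the heme ring. In myeloid cells heme is needed for myeloperoxidase, the NADPH oxidase and catalase, among others.

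Sequences show which of these messages could be read by miR-125b or by the iron sensors. The mature miRNA, from RefSeq (GRCm38.p6), is given with its seed (bases 2 to 8) in capitals, followed by the match to it in the longest annotated 3′ UTR of Cpox and of Tfrc (GENCODE M21, GRCm38), with the matching bases in capitals.
miR-125b: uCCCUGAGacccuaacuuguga
Cpox: tgctacagaagtttaTCAGGGAataca
Tfrc: gaatgtcactaggctCTCAGGGtcttg
The Cpox match lies in its last exon, exon 7 of 7, at chr16:58679125-58679151 (plus strand), and begins at base 383 of a 3′ UTR of 1629 bases. It is TCAGGGA, which pairs with bases 2 to 7 and is followed by an A (a 7mer-A1 site). That of Tfrc lies in exon 19 of 19 at chr16:32632258-32632284 (plus strand), begins at base 1937 of 2458, and is CTCAGGG, which pairs with bases 2 to 8 (a 7mer-m8 site). Among 9912 tested genes with a 3′ UTR, a 7mer-A1 was the best site in 7.06%, a 7mer-m8 without an 8mer in 9.91% and an 8mer, which has both features, in 5.53%. Fech held an 8mer at base 931 and a 7mer-m8 at base 2016 of a 3′ UTR of 5243 bases, besides 1 further 7mer-A1. This UTR belongs to a longer transcript than the row of 2901 exon bases that was counted. The other 6 members (Alas1, Alad, Uros, Urod, Ppox and Hmox1) held no seed match in 3′ UTRs of 65 to 623 bases. A match is only a run of letters and not a measured site.

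Iron-responsive elements are hairpins that bind the iron regulatory proteins when iron is scarce. In the 3′ UTR of Tfrc this binding protects the message from decay, and in the 5′ UTR of ferritin and Alas2 messages it blocks translation. The pattern CNNNNNCAGTGN, with the 5 bases on either side of the loop able to pair (G with U included), was searched on the transcribed strand. It is shown for Tfrc, Fth1, Ftl1 and Alas2 with the loop in capitals.
Tfrc 1: ttatcggaagCAGTGCcttccataat
Tfrc 2: ttatcgggagCAGTGTcttccataat
Tfrc 3: atatcggagaCAGTGAtctccatatg
Tfrc 4: ttatcgggaaCAGTGTttcccataat
Fth1: cctgcttcaaCAGTGCttgaacggaa
Ftl1: cttgcttcaaCAGTGTttgaacggaa
Alas2: ggttcgtcctCAGTGCagggcaacag
The 4 Tfrc elements start at bases 889, 1268, 1333 and 1380 of the 3′ UTR (the first at chr16:32631221-32631246 and the last at chr16:32631712-32631737, GRCm38, plus strand). The Fth1 element is in exon 2 of 5 (chr19:9982734-9982759, plus strand), that of Ftl1 in exon 1 of 4 (chr7:45459780-45459805, minus strand) and that of Alas2 in exon 1 of 11 (chrX:150547460-150547485, plus strand). These exons are those of the transcript with the longest annotated 5′ UTR. For Fth1 it differs from the counted row, which has 4 exons and 866 exon bases. Of 9930 tested genes searched, 0.675% had such a pattern in the 3′ UTR and 0.141% in the 5′ UTR, and 1 gene, Tfrc, had at least 3 in its 3′ UTR. Leaving Fech aside, no other member held one with 5 pairs in either UTR. The result for Fech is not reported here. Along the Tfrc 3′ UTR, the seed match for miR-125b thus lay downstream of all 4 elements.

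**Figure D1:**
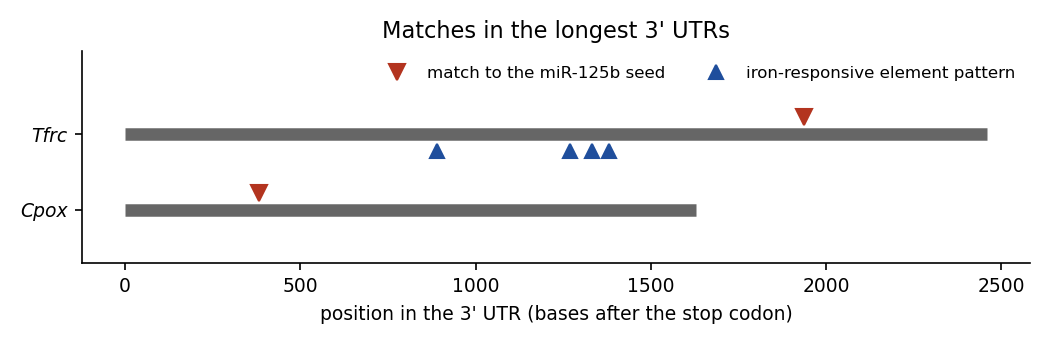
Position, in bases after the stop codon, of matches in the longest annotated 3′ UTR of Tfrc and Cpox. Grey bars are the UTRs, red triangles the miR-125b seed matches and blue triangles the 4 iron-responsive element patterns of Tfrc, which lie between bases 889 and 1380, before its seed match at base 1937.

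Values are RPKM, the reads of a row per kilobase of exon, scaled to the total reads of its library. Summed over all 26982 transcript rows, these totals were 11.2 and 10.4 M (control 1 and 2) and 12.6 and 11.7 M (miR-125b 1 and 2). With 1 row per gene they were 8.42 and 7.73 M (control) and 9.48 and 8.82 M (miR-125b). The members rested on 60 (Uros, miR-125b 2) to 6433 reads (Tfrc, control 1), and counting alone gives an SD of 12.9% for the former. The 2 control libraries resembled each other less (r = 0.957 across genes) than the 2 miR-125b libraries did (r = 0.979), and control 2 minus control 1 followed transcript GC content (Spearman's rho 0.474 across genes, which are not independent replicates). Of 12 myeloid progenitor markers, 11 reached 1 RPKM in at least 2 libraries. Kit was the exception, with at most 1 read in any library. The same level was reached by 10310 of all 21506 genes, so this count alone does not identify the cell type. Of 11 erythroid markers 4, among them Hbb-b1, Slc4a1 and Rhag, were at 0 in all libraries and the list summed to between 9.60 and 14.6 RPKM. Klf1, Epor and Epb4.2 exceeded 1 RPKM in every library, at 1.44 to 6.32 RPKM, and the remaining markers stayed under 1 RPKM. Among the latter, Spna1 was at 0 in both controls and at 0.236 and 0.517 RPKM with miR-125b. Of 10 macrophage markers Marco, Spic, Vcam1, C1qb and Slc40a1 were at 0 throughout, and the list summed to 27.98 and 32.1 RPKM in control and to 25.6 and 12.1 RPKM in miR-125b cells, nearly all of it Emr1. In bulk RNA, fewer cells of a kind and less RNA per cell cannot be told apart.

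With miR-125b, 3 of the 9 members stood below both controls (Alas1, Uros and Cpox), 2 stood above both (Alad and Hmox1) and 4 overlapped. Of all 10310 tested genes 20.4% lay below and 22.3% above in this sense, so that a count of 5 in 9 is close to the 42.8% of the background. None of the 9 passed limma's test on log2(RPKM + 1) at an adjusted p under 0.05, as none did among all genes (0% called). At an unadjusted p under 0.05, limma gave 1 member (Cpox, lower) and 967 of all genes (9.38%, of which 5.21% lower and 4.17% higher). On the recovered reads, limma-voom gave 1 member at that threshold (Cpox, lower) and 997 of all genes, and it called 0 members at an adjusted p under 0.05. All 9 members exceeded the filter of 1 RPKM in every library. The median log2 difference (miR-125b minus control) was -0.11 over the members and 0.024 over all tested genes.

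**Figure D2:**
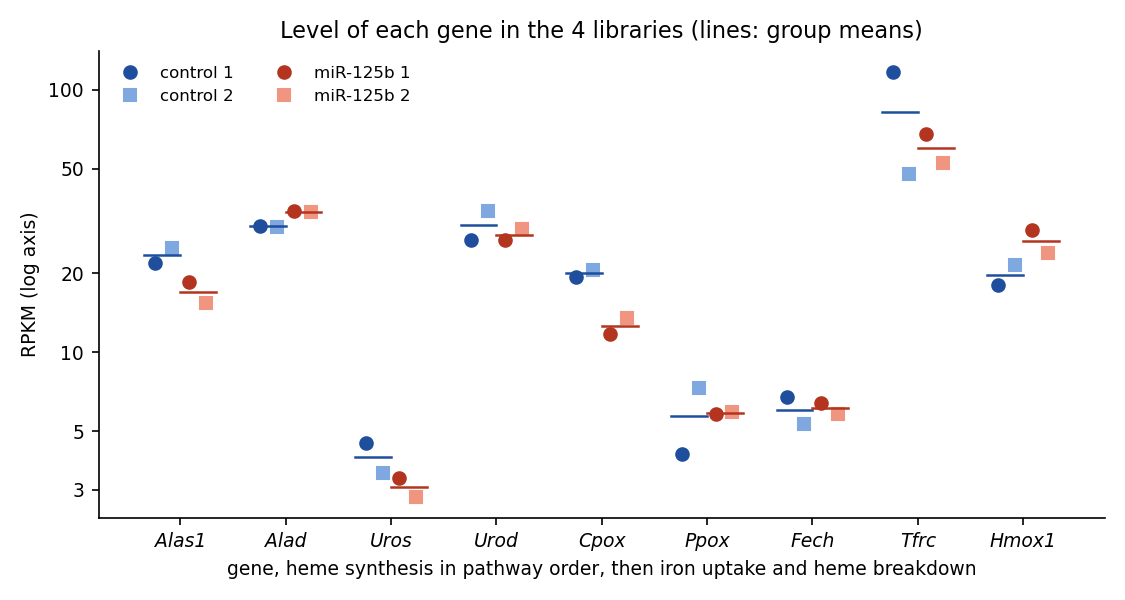
RPKM on a log axis of the 9 members in each library. Circles and squares are replicates 1 and 2, blue for control and red for miR-125b, and short lines are group means. Both miR-125b points lie below both control points for Alas1, Uros and Cpox and above them for Alad and Hmox1, and the control 1 point of Tfrc stands alone at 116.6 RPKM.

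The levels spanned a wide range. Averaged over the 4 libraries, Tfrc was highest at 71.1 RPKM, followed by Alad at 32.3, Urod at 29.3, Hmox1 at 23.1, Alas1 at 20.2, Cpox at 16.3, Fech at 6.08, Ppox at 5.80 and Uros at 3.53 RPKM. The ranges over libraries were separate between Tfrc and Alad and between Cpox and Fech, and overlapped between all other neighbours. Tfrc was more abundant than 92.5% of the tested genes and Uros than 14.9%. Tfrc was first in all 4 libraries.

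Alas1 (chromosome 9, 106135786 to 106150285 in mm9, 11 exons), the gene of the first enzyme, gave 21.8 and 25.0 RPKM in controls 1 and 2, and 18.6 and 15.4 RPKM in the libraries with miR-125b. Both miR-125b libraries were lower, at 72.5% of the control mean. The log2 difference was -0.44 ± 0.19 (SE; limma adjusted p = 0.534), with a 95% interval of -0.90 to 0.018, and it ran from -0.57 to -0.32 with libraries left out in turn. The erythroid form Alas2 had 19 to 24 reads per library, at 0.855 and 0.974 (control) and 0.961 and 0.861 RPKM (miR-125b), below the filter, so that Alas1 was the main synthase message in these cells.

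Cpox (chromosome 16, 58670321 to 58680502, 7 exons) encodes coproporphyrinogen oxidase, which acts in the mitochondrial intermembrane space, and showed the largest difference among the members. It was at 19.4 and 20.6 (control) and at 11.8 and 13.5 RPKM (miR-125b), backed by 473 to 692 reads. The gap between the groups was wider than the spread within either one (19.97 ± 0.868 against 12.6 ± 1.197 RPKM, SD, n = 2 each), and the miR-125b mean was 63.2% of control. The log2 difference was -0.63 ± 0.18 (SE), with an unadjusted limma interval of -1.05 to -0.20 that leaves out 0 and an adjusted p of 0.464. Without control 1 it was -0.67 (adjusted p = 0.0901), the lowest adjusted p of any member under any alternative. By best seed match, the median log2 difference was 0.028 over the 700 tested genes of the 7mer-A1 class of Cpox, -0.051 over 982 of the 7mer-m8 class of Tfrc and -0.12 over 548 of the 8mer class of Fech. It was 0.025 over 1344 genes with a 6mer and 0.049 over 6338 with no match. The last had shorter 3′ UTRs (median 742 bases) than the other classes (1930.5 to 2303 bases), and the part of UTR length was not tested.

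Genes whose pattern over the 4 libraries was nearest to that of Cpox were Actl6a, Madd, Med9, Stk24 and 2310068J16Rik, by the Euclidean distance between deviations of log2(RPKM + 1) from the mean of each gene. Actl6a, a subunit of chromatin remodelling complexes, was at 44.7 and 48.7 (control) and at 27.3 and 32.3 RPKM (miR-125b) (distance 0.048). The distances of the other 4 ran from 0.104 (Madd) to 0.117 (2310068J16Rik), against a median of 0.746 over 8072 candidate genes. With 4 libraries, such a likeness describes these samples only.

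Uros (chromosome 7, 140878013 to 140900978, 10 exons) encodes uroporphyrinogen III synthase, which closes the tetrapyrrole ring in the right orientation. It was the rarest member, at 4.52 and 3.46 (control) and 3.33 and 2.82 RPKM (miR-125b), from 60 to 92 reads. The groups were separate, but control 2 and miR-125b 1 differed by less than the counting error. The log2 difference was -0.29 ± 0.21 (SE; limma adjusted p = 0.674), and without control 1 it was -0.13.

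Alad (chromosome 4, 62170204 to 62181097, 12 exons), the gene of the second enzyme, which joins 2 aminolevulinate molecules into porphobilinogen, gave closely matching replicates. It stood at 30.3 and 30.1 (control) and 34.4 and 34.2 RPKM (miR-125b). The miR-125b mean was 113.6% of control, a small step with separate groups. The log2 difference of 0.18 ± 0.18 (SE) carried a limma adjusted p of 0.746, because the fit borrows its spread from all genes, and it stayed between 0.17 and 0.19 with libraries left out. After correction for GC content it was 0.29.

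Urod (chromosome 4, 116662822 to 116666980, 10 exons), uroporphyrinogen decarboxylase, overlapped between groups at 26.7 and 34.5 (control) and 26.7 and 29.4 RPKM (miR-125b). Its log2 difference was -0.11 ± 0.20 (SE) and the limma interval ran from -0.60 to 0.37.

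Ppox (chromosome 1, 173207123 to 173211317, 13 exons), which encodes protoporphyrinogen oxidase of the inner mitochondrial membrane, differed more between the controls than between the groups. The controls were at 4.11 and 7.30 RPKM, with the miR-125b libraries between them at 5.83 and 5.94 RPKM. The log2 difference of 0.081 ± 0.26 (SE) was 0.43 without control 2 and -0.27 without control 1. Fech (chromosome 18, 64616204 to 64648720, 11 exons) was at 6.75 and 5.32 (control) and 6.42 and 5.85 RPKM (miR-125b), fully overlapping. Its log2 difference was 0.026 ± 0.19 (SE), with an interval of -0.44 to 0.49 that holds changes in either direction.

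**Figure D3:**
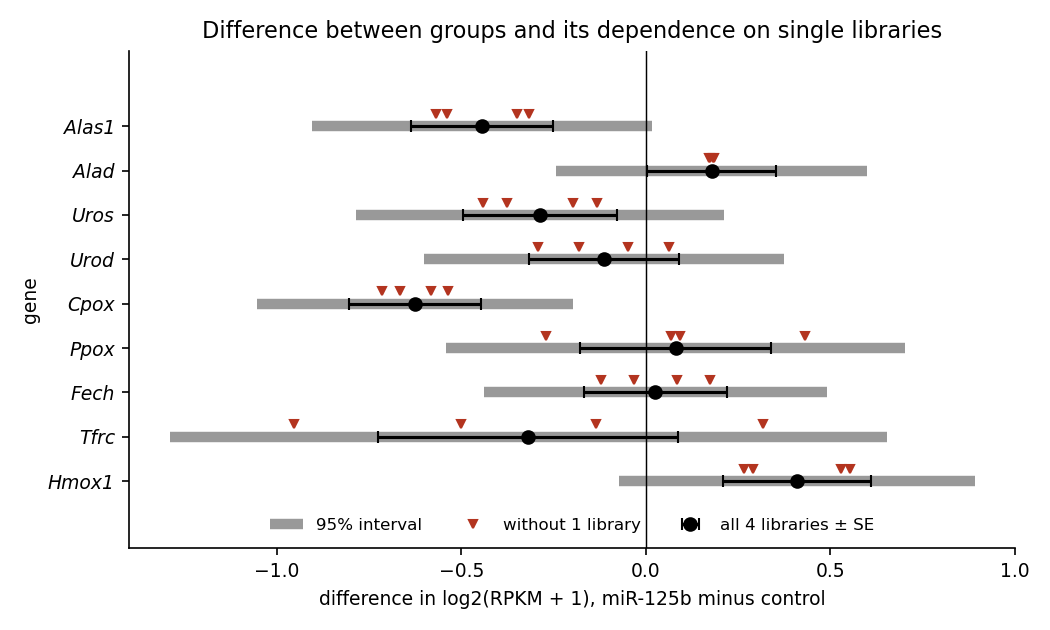
Difference in log2(RPKM + 1), miR-125b minus control, for the 9 members. Black points with whiskers are the estimate from all 4 libraries ± SE, grey bars the 95% interval of limma (not adjusted for the number of genes), and red triangles the estimates without 1 library. Cpox is the gene whose interval, -1.05 to -0.20, leaves out 0, while Urod, Ppox, Fech and Tfrc have triangles on both sides of 0.

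The member enzymes were also summed by compartment. The mitochondrial steps (Alas1, Cpox, Ppox and Fech) came to 52.0 and 58.2 (control) and to 42.6 and 40.7 RPKM (miR-125b), with both miR-125b libraries below both controls. Within that sum Alas1 and Cpox stood below both controls, while Ppox and Fech overlapped. The cytosolic steps among the members (Alad, Uros and Urod) came to 61.6 and 67.996 (control) and to 64.4 and 66.4 RPKM (miR-125b), with the miR-125b libraries between the controls. Here Uros stood on the other side from Alad. Over all 7 member enzymes the sum was 113.6 and 126.2 (control) and 107.0 and 107.1 RPKM (miR-125b). This grouping was made with the values known, so it is a description with no test.

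Hmox1 (chromosome 8, 77617517 to 77624491, 5 exons) encodes the inducible heme oxygenase, which degrades heme to biliverdin, carbon monoxide and iron and responds to heme and to oxidants. It was at 17.98 and 21.4 (control) and at 29.3 and 23.8 RPKM (miR-125b). Both miR-125b libraries were higher, at 134.7% of the control mean, though miR-125b 2 exceeded control 2 only narrowly. The log2 difference was 0.41 ± 0.20 (SE; limma adjusted p = 0.565), with an interval of -0.072 to 0.89, and it lay between 0.27 (without miR-125b 1) and 0.55 (without miR-125b 2).

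Set against each other within a library, Alas1 and the inducible oxygenase gene Hmox1 gave a ratio with closely matching replicates. Alas1 divided by Hmox1 was 1.21 and 1.17 under the control virus, against 0.634 and 0.648 under XZ-miR-125b. Alas1 thus exceeded Hmox1 in both controls and was below it in both miR-125b libraries, on the per-length RPKM scale. The constitutive heme oxygenase gene Hmox2 was at 51.6 and 51.6 (control) and 56.7 and 55.0 RPKM (miR-125b). It was thus above Alas1 in each library. The pair of Alas1 and Hmox1 was chosen after its values had been seen, so no test is given. Of the other ratios formed, Cpox to Alad and Alas1 to Alad were lower in both miR-125b libraries, and Tfrc to Fth1 overlapped between groups.

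**Figure D4:**
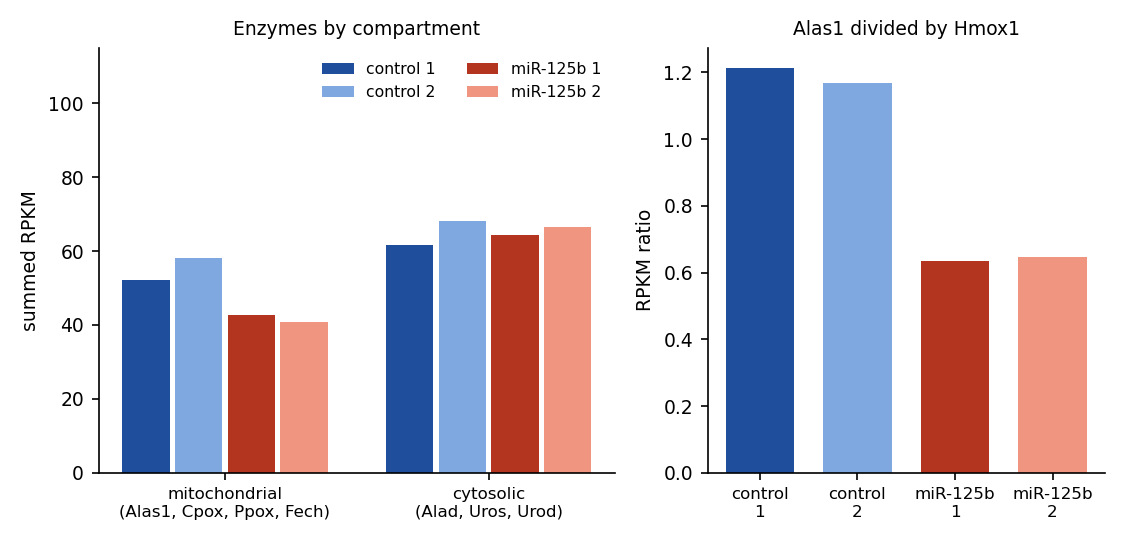
Left, summed RPKM of the mitochondrial and of the cytosolic member enzymes in each library. Right, Alas1 divided by Hmox1 in each library, at 1.21 and 1.17 in control (blue) and 0.634 and 0.648 with miR-125b (red), with bars starting at 0.

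Tfrc (chromosome 16, 32608982 to 32632879, 19 exons), the receptor that brings in transferrin-bound iron, was at 116.6 and 47.7 (control) and at 67.8 and 52.5 RPKM (miR-125b). Control 1 stood 2.45 times above control 2, and the other 3 libraries were within a narrower band, so the groups overlapped. With 2430 or more reads in each library, counting error was 2.03% at most. The log2 difference of -0.32 ± 0.41 (SE; limma adjusted p = 0.798) was -0.95 without control 2 and 0.32 without control 1, and its direction thus hung on which control was kept.

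The Tfrc transcript had the lowest GC content of the members (39.8%), and control 2 was low in GC-poor transcripts. Among 440 tested genes within 1 percentage point of that content, control 2 minus control 1 had a median of -0.34 on the log2 scale. For Tfrc it was -1.27, lower than in all but 0.909% of those genes. With GC content corrected in each library, the log2 difference of Tfrc between groups was -0.45 ± 0.33 (SE; limma adjusted p = 0.635). For Ppox, at 56.6% GC, the difference between the controls was 0.70 against a median of 0.21 at like content. The part of GC content and of iron supply in these differences was not tested.

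**Figure D5:**
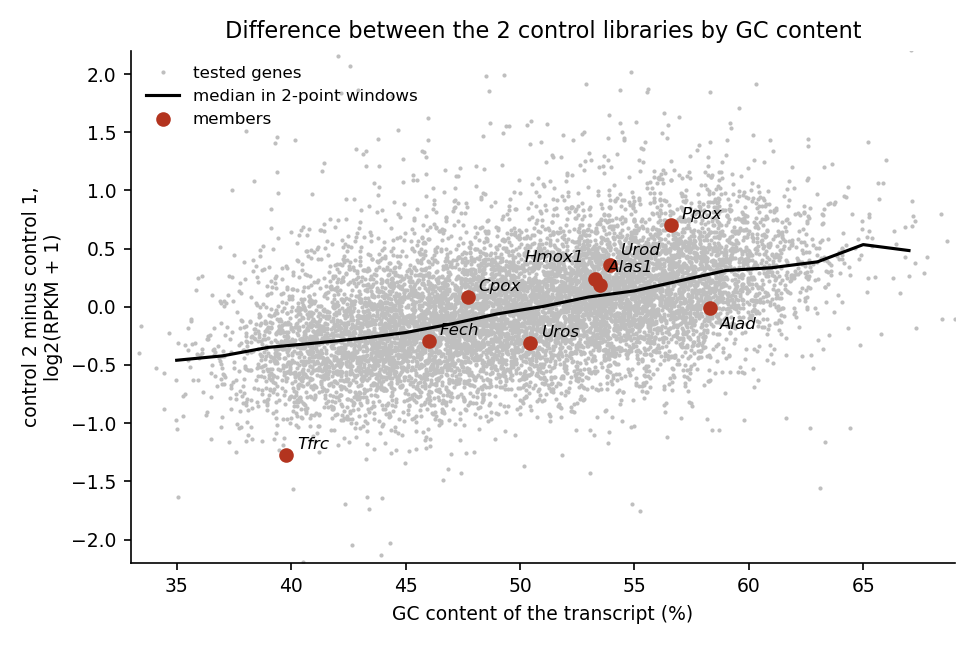
Control 2 minus control 1 in log2(RPKM + 1) against transcript GC content for the tested genes (grey), with the median in windows of 2 points (black) and the 9 members (red). The median climbs with GC content, Tfrc lies far below it at -1.27 and Ppox above it at 0.70, and 20 genes beyond 2.2 in either direction are not drawn.

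The companions of Tfrc in iron balance were followed with it. Fth1 and Ftl1, the heavy and light chains of ferritin, stood at 714.4 and 835.5 RPKM (Fth1) and at 279.6 and 320.9 RPKM (Ftl1) in control. With miR-125b they were at 821.7 and 824.0 RPKM (Fth1) and 334.7 and 346.2 RPKM (Ftl1). Ftl1 lay above both controls, with a log2 difference of 0.18 ± 0.20 (SE; limma adjusted p = 0.764) that was 0.085 without control 1 and 0.28 without control 2, and Fth1 overlapped. Both have processed copies in the genome, so their values are uncertain where shared reads were divided or lost.

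Aco1 and Ireb2 encode the iron regulatory proteins. Aco1 was at 2.04 and 3.01 (control) and 2.83 and 2.15 RPKM (miR-125b), a complete overlap. Ireb2 was the more abundant, at 19.0 and 12.7 (control) and 20.5 and 22.7 RPKM (miR-125b). Its log2 difference of 0.45 ± 0.23 (SE; limma adjusted p = 0.581) was 0.18 without control 2, and its transcript is as GC-poor as that of Tfrc (39.0%).

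The wider list of iron regulatory proteins and their control had 11 tested genes of 12, of which 6 lay above both controls, 0 below and 5 overlapped, with a median log2 difference of 0.21. Background shares over all 10310 tested genes, for this list and those that follow, were 22.3% above and 20.4% below. None passed limma's test over all genes. Egln3, a prolyl hydroxylase that marks hypoxia-inducible factor for destruction and uses iron to do so, was at 74.4 and 84.2 (control) and 139.3 and 140.7 RPKM (miR-125b). Its log2 difference was 0.82 ± 0.19 (SE; limma adjusted p = 0.410), and it lay between 0.73 and 0.90 with libraries left out.

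Fbxl5, the iron-sensing ubiquitin ligase subunit that removes Ireb2 protein, stood at 8.45 and 6.18 (control) and 9.32 and 9.46 RPKM (miR-125b). Hif1a, the oxygen-regulated transcription factor, was at 28.6 and 24.8 RPKM and at 32.0 and 29.8 RPKM. Control 2 was the lowest library for Ireb2, Fbxl5 and Hif1a. Without it the log2 differences were 0.18, 0.14 and 0.11, and the median of the list was 0.14, against 0.094 without control 1. With GC content corrected that median was 0.11.

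Iron uptake, storage and export had 15 tested genes of 28, with 3 above both controls, 3 below, 9 overlapping, 0 passing the test and a median log2 difference of 0.091, which was 0.026 without control 1 and 0.20 without control 2. Ltf, the iron-binding lactoferrin of neutrophil granules, was at 8.83 and 5.20 (control) and 1.13 and 0.435 RPKM (miR-125b) (log2 difference -2.16 ± 0.31, SE; limma adjusted p = 0.213), from as few as 14 reads. With a miR-125b library left out, which leaves 1 library in that group and takes the spread within groups from the controls alone, it was -2.44 or -1.88 and passed. With control 1 or control 2 left out it did not (limma adjusted p = 0.0776 and 0.195). Slc11a2, the divalent metal transporter that releases iron from endosomes, was at 5.68 and 5.42 (control) and 4.38 and 4.11 RPKM (miR-125b). Its replicates were close and its log2 difference was -0.32 ± 0.18 (SE).

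Steap3, the endosomal ferrireductase, was at 7.004 and 7.86 (control) and 9.45 and 8.34 RPKM (miR-125b). The second transferrin receptor gene, listed in the tables as Trfr2, was at 4.11 and 3.06 RPKM and at 4.197 and 7.14 RPKM, so that control 1 and miR-125b 1 were nearly level. The exporter gene Slc40a1 was at 0 in all libraries.

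Transport into mitochondria and iron-sulfur cluster assembly had all 20 genes tested, with 6 below both controls, 2 above, 12 overlapping and 0 passing. The median log2 difference was -0.11, and -0.0047 with GC content corrected. Slc25a28 encodes mitoferrin 2, an iron carrier of the inner mitochondrial membrane, and was at 51.3 and 75.5 (control) and 48.1 and 36.6 RPKM (miR-125b). Abcb6, a porphyrin transporter gene, was at 12.2 and 13.3 (control) and 9.75 and 8.28 RPKM (miR-125b) (log2 difference -0.46 ± 0.18, SE; limma adjusted p = 0.513).

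Clpx, a mitochondrial unfoldase subunit that acts on aminolevulinate synthase, stood on the opposite side from Slc25a28 and Abcb6, at 15.7 and 10.7 (control) and 17.04 and 19.3 RPKM (miR-125b). Slc25a28 and Clpx had 1 control library close to a miR-125b library, and Abcb6 had a wider gap.

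Heme breakdown, carriers and sensing had 10 tested genes of 13, of which 1 lay above both controls, 2 below and 7 overlapped, with 0 passing and a median log2 difference of -0.040. Hmox2, the constitutive heme oxygenase, was at 51.6 and 51.6 (control) and 56.7 and 55.0 RPKM (miR-125b). On this per-length scale it was more abundant than Hmox1 in each library. The heme-binding nuclear receptor genes Nr1d1 and Nr1d2 were low, at 1.86 and 1.80 RPKM and at 1.38 and 1.39 RPKM in control. With miR-125b they were at 1.69 and 1.23 RPKM (Nr1d1) and 1.04 and 0.698 RPKM (Nr1d2).

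NRF2 is the oxidant-responsive factor that drives Hmox1 together with small Maf proteins, and 14 of 15 listed genes of its response were tested. Here 5 lay above both controls, 4 below and 5 overlapped, with 0 passing and a median log2 difference of 0.00087, the members lying between -0.71 and 0.79. That median was -0.079 with no filter on low values, and from -0.054 (without miR-125b 1) to 0.056 (without control 1) with libraries left out. The small Maf genes lay on both sides of the controls. Maff was at 3.22 and 3.80 (control) and 5.46 and 7.15 RPKM (miR-125b), with a log2 difference of 0.69 ± 0.21 (SE; limma adjusted p = 0.464).

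Mafk was at 21.8 and 37.6 (control) and 17.95 and 16.4 RPKM (miR-125b), and Mafg at 43.5 and 65.1 RPKM and at 40.4 and 36.7 RPKM. In both, control 2 was the highest library. Slc7a11, the cystine transporter gene, was at 2.12 and 1.74 (control) and 2.58 and 6.14 RPKM (miR-125b), the last library standing apart.

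Proteins that carry heme had 14 tested genes of 28, with 7 above both controls, 3 below, 4 overlapping, 0 passing and a median log2 difference of 0.13, which was 0.26 without control 1 and 0.026 without control 2. Mpo, the gene of myeloperoxidase, the main heme enzyme of primary granules, was at 39.1 and 54.2 (control) and 273.0 and 105.3 RPKM (miR-125b). Epx, the eosinophil peroxidase gene, was at 86.7 and 5.95 (control) and 2.91 and 2.19 RPKM (miR-125b), so its log2 difference of -2.81 was -0.98 without control 1. Without control 2 it was -4.63 and passed, but control 1 was then the only control, and it also passed without miR-125b 1 (-2.95) but not without miR-125b 2 (-2.66). The log2 difference of Mpo (1.86) was 1.18 without miR-125b 1 (limma adjusted p = 0.259) and 2.54 without miR-125b 2, where it passed with 1 miR-125b library in the fit. Control 1 was thus the library with by far the most Epx as well as the most Tfrc.

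Sdhd, a heme-binding subunit of succinate dehydrogenase, was at 106.2 and 68.5 (control) and 119.6 and 138.8 RPKM (miR-125b). Cyb5r4, a cytochrome b5 reductase, was at 13.0 and 6.89 RPKM and at 5.27 and 5.67 RPKM. Across the 7 pathway lists together, 85 of 118 genes were tested, 25 lay above both controls, 18 below and 42 overlapped, and 0 passed limma's test over all genes. Of all tested genes, 22.3% lay above and 20.4% below. At an unadjusted limma p under 0.05, 4 of the 85 were higher and 5 lower, against 4.17% and 5.21% of all tested genes. Each limma p-value sets the difference between these particular cultures against a spread that is partly borrowed from all genes. With 2 libraries a group, it speaks for nothing wider.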

How the data were processed

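The authors deposited, for each library, RPKM values for 26982 RefSeq transcript rows with mm9 named as build, per the submitters' processing notes, with aligner and counter not given in the sources used here. RPKM times exon length was divided by the smallest nonzero value so obtained in the same library. The result was a whole number in 100% of rows (tolerance 0.001) and was taken as reads. Library totals are sums of these reads. Rows were joined across tables by identity, since their order differs, and of several rows for a gene (3423 of 21506 genes) the longest was used. The titles gave each library its group and number. limma 3.58.1 (R 4.3.3), with a trended prior and group as the only term, was fitted 2-sided to log2(RPKM + 1) over the 10310 genes with at least 1 RPKM in at least 2 libraries, with Benjamini-Hochberg adjustment over all of them and a threshold of 0.05. The log2(RPKM + 1) scale understates changes of low genes. The fit was also run on simulated counts without a GC trend, in which the changed genes changed more than any member. That run does not show how the fit performs on these data. The members and lists were chosen with earlier results of these data known. Named were all members, Alas2, Fth1, Ftl1, Aco1, Ireb2, in each list up to 4 genes with separate groups and the largest difference, and the 5 genes nearest to the member with the largest difference (mean of at least 5 RPKM). Some genes that enter the list counts are not reported here by name. Flvcr1, Flvcr2, Tfr2 and Spi1 were matched to older symbols by accession. UTRs and GC content came from GENCODE M21 (GRCm38), joined for 99.4% of genes. Other pseudocounts, filters, scalings, rows, limma-voom, GC correction, a replicate block and each library left out were tried.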

Additional observations from a re-analysis of the deposited data

How the results depend on the processing

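Under 14 alternatives no member passed limma's test (lowest adjusted p 0.0901, Cpox without control replicate 1), and 118 of 125 member values kept their direction. With each library left out in turn, the log2 difference ran from -0.29 to 0.064 for Urod, from -0.27 to 0.43 for Ppox, from -0.12 to 0.17 for Fech (-0.032 without miR-125b replicate 1) and from -0.95 to 0.32 for Tfrc. Among companion genes it ran from -0.022 to 0.20 for Fth1 and from -0.21 to 0.19 for Aco1 (0.13 without miR-125b replicate 2). With GC content corrected, alone or together with the replicate block, Fech was at -0.033 and Aco1 at 0.0079. The cause was not tested. The median over the members ran from -0.14 to -0.048 with libraries left out.

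Over all genes 0 were called, against 12 with the replicate block and 0 to 91 with libraries left out (0 and 1 for the controls, 91 for miR-125b replicate 1, 25 for its replicate 2). Lower genes made up 55.5% at an unadjusted p under 0.05, and from 47.9% to 66.6% with libraries left out. Same-numbered libraries hardly deviated together (r = 0.021 across genes). The titles do not say whether equal numbers share an infection occasion, and this r cannot settle it. The block changed no call of a member, and Ltf passed with it (-2.16, limma adjusted p = 0.0134). With GC content corrected as well, Ltf did not pass (0.0957) and 0 genes were called. A group left with 1 library is assumed to vary like the other group, whose 2 libraries alone give the spread. Medians of the pathway lists under the alternatives were added after seeing the data. For mitochondrial transport and cluster assembly they ran from -0.079 to -0.068 with libraries left out, and for heme breakdown from -0.28 to 0.091. Uros, with 60 to 92 reads, was the member most limited by depth, and was not tested with a mean of at least 5 RPKM required.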
